A study of Mus musculus with 5 samples.

Results

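Described here are cells from libraries of sorted SMARTA CD4 T cells. They are called ribosome-building cells and were chosen by their UMIs (unique molecular identifiers, each marking 1 captured transcript). Such cells carry UMIs of many of 10 genes, only part of which build ribosomes, and of few of a short list of cell cycle genes. They were chosen by a rule on 14 genes, in the antibody and the untreated library. With all UMIs of a cell read, a cell was taken when it had a UMI of at least 5 of 10 genes (Srm, Nop16, Ppan, Polr1b, Trmt61a, Pus7, Atad3a, Bcat1, 3110082I17Rik and Nefh, called the rule genes) and of at most 1 of 4 cell cycle genes (Mki67, Top2a, Birc5 and Ccna2). The rule was met by 280 of the 5665 cells in both libraries, and the whole series holds 20149 cells. Of the 280 cells, 220 came from the antibody library and 60 from the untreated library. They were set against the low cells of the same libraries, which had a UMI of at most 2 of the 10 rule genes: 3707 cells in the antibody library and 977 in the untreated library.

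Ribosomes are built in the nucleolus. RNA polymerase I transcribes the precursor of most ribosomal RNA, RNA polymerase III makes the remaining 5S RNA and the transfer RNAs, small nucleolar ribonucleoproteins modify the precursor, and large sets of assembly factors fold and cut it into the small and the large subunit. A resting T cell keeps this machinery low. After its receptor is engaged it enlarges, and before it first divides it raises ribosome production, amino acid uptake, polyamine and nucleotide synthesis and mitochondrial protein import, a programme that depends in large part on the transcription factor Myc.

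Droplet libraries that read transcript 3′ ends were made from sorted CD4+CD45.1+ cells, with 1 library per group and no replicates. SMARTA cells carry a transgenic T cell receptor, and the genotype label is C57BL/6 throughout. The library with both treatments (4343 cells) combined Treg depletion, for which the protocol gives diphtheria toxin on days 0 and 2, with anti-CTLA4 antibody on days 0, 2 and 5. The Treg-depleted library (2186 cells) had the toxin alone, the antibody library (4566 cells) the antibody alone, and the untreated library (1099 cells) has the treatment label none; the protocol names PBS beside the toxin. The allele that makes Tregs sensitive to the toxin is not given in the sources used here. These 4 came from the inguinal lymph node of tumor-bearing mice on day 8, and naive SMARTA cells (7955) came from spleen. The labels name MC38 in one protocol and PyMG in another as the injected tumor, no label mentions the isotype antibody of the series' design text, and how many mice were pooled is not given in the sources used here. CTLA4 is an inhibitory receptor of T cells, and Tregs are regulatory T cells. The antibody library held 27967273 UMIs and the untreated library 3825958, with a median per cell of 4797 and 3133. Ribosome-building cells were deeper than low cells in both, with medians of 6872.5 against 4374 UMIs in the antibody library and 5313 against 3015 in the untreated library. For this reason each cell was thinned at random to 1000 UMIs before levels were compared, which left out 22 low cells of the untreated library. Levels are CPM, the number of a gene's UMIs per 1000000 UMIs of all 11924 listed genes, of which 3 are ribosomal protein genes. Intervals in parentheses are exact 95% intervals, for counting error only. Since each group is 1 library and cells are chosen by their own counts, no test was possible. A gene counted as higher or lower at 1.5-fold. Genes were measured, in this sense, where both sets of cells together gave 30 UMIs or more and the average level was 25 CPM or more.

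The rule itself fixed the levels of the 10 rule genes, which are given as a description. Srm, the spermidine synthase of the polyamine pathway, had 536 CPM in the ribosome-building cells and 31.8 CPM in the low cells of the antibody library, a ratio of 16.9 (12.9 to 21.9). The untreated Srm levels were 717 CPM in the ribosome-building cells and 35.6 CPM in the low cells, a ratio of 20.1 (12.5 to 32.5). A UMI of Srm was present in 92.3% of the ribosome-building cells of the antibody library and 98.3% of those of the untreated library before thinning. Nop16, a nucleolar factor of large subunit assembly, had 350 CPM in the ribosome-building cells and 36.4 CPM in the low cells of the antibody library, a ratio of 9.61 (7.17 to 12.8). The untreated Nop16 levels were 417 CPM in the ribosome-building cells and 46.1 CPM in the low cells, a ratio of 9.04 (5.30 to 15.1). Bcat1, the cytosolic branched-chain amino acid transaminase, had 19 UMIs in the ribosome-building cells and 10 in the low cells of the antibody library, and 4 and 2 in the untreated library. Nefh, the heavy neurofilament chain, a structural protein known from neurons, had 123 CPM in the ribosome-building cells and 8.63 CPM in the low cells of the antibody library, a ratio of 14.2 (8.19 to 24.5). The untreated Nefh levels were 183 CPM in the ribosome-building cells and 9.42 CPM in the low cells, a ratio of 19.5 (7.33 to 53.1). Among the 10 genes Polr1b, a subunit of RNA polymerase I, was seen least often, in 33.6% and 31.7% of the ribosome-building cells of the antibody and the untreated library. In GENCODE M21 (GRCm38) Srm lies at chr4:148591503-148594993, plus strand, Nop16 at chr13:54584185-54590090, minus strand, Bcat1 at chr6:144993835-145076184, minus strand and Nefh at chr11:4938754-4948064, minus strand. The rule let a low cell have a UMI of up to 2 of these genes, and the 4 summed to 79.6 and 93.2 CPM in the low cells of the antibody and the untreated library, most of it from Srm and Nop16.

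The ribosome biogenesis level climbed gradually with the number of rule genes. Summed over the 4 ribosome biogenesis lists (178 listed genes, none of them a rule gene), the level at exactly 5 rule genes, just inside the rule, was 34597 CPM (33148 to 36093; 62 cells) in the antibody library and 42636 CPM (39951 to 45455; 22 cells) in the untreated library. At exactly 4 rule genes, just outside it, the level was 29641 CPM (28445 to 30874; 78 cells) in the antibody library and 39800 CPM (37083 to 42664; 20 cells) in the untreated library. Cells without any rule gene had 15904 CPM (15713 to 16098; 1653 cells) and 16144 CPM (15821 to 16472; 589 cells). Up to 2 rule genes both libraries lay close together, and from 3 on the untreated library had the higher level at every number. The intervals overlapped at 6 and 10. At the other numbers too they hold only the counting error of pooled UMIs, not the spread between cells, so they do not set the libraries apart. At 9 rule genes the untreated level came from 5 cells. The level grew at each step up to 10 in the antibody library, and in the untreated library it was lower at 6 than at 5 and at 10 than at 9. Cells with more rule genes were also deeper before thinning: the median was 3618 UMIs at 0 rule genes and 9296 at 9 in the antibody library, and 2856.5 and 7484 in the untreated library. At the same number of rule genes the antibody cells were mostly the deeper ones, with medians of 5690 against 4145.5 UMIs at 5. The untreated cells were deeper at 7, with 7295.5 against 6995.5 UMIs, and at 10. The part of depth in the gradient and in the difference between the libraries was not tested.

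**Figure D1:**
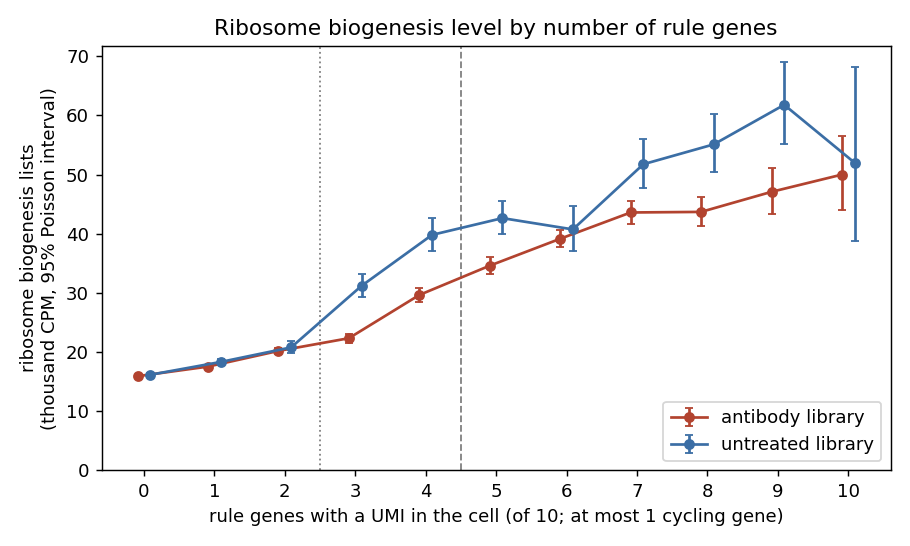
Summed level of the 4 ribosome biogenesis lists (axis in units of 1000 CPM, cells thinned to 1000 UMIs) by the number of rule genes with a UMI, for the antibody (red) and the untreated library (blue), with 95% Poisson intervals; cells have at most 1 cycling rule gene. The dashed line marks the lower limit of the rule and the dotted line the upper limit of the low cells; the level is higher with more rule genes, and at 5 rule genes it is 34597 CPM in the antibody library and 42636 CPM in the untreated library.

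Promoter windows from RefSeq (GRCm38.p6, 250 bases before to 50 after each gene's start) were read for the motif CACGTG, the E-box bound by Myc and related factors, which reads the same on both strands. Of the 10 rule genes 7 matched the table, and 3 of these 7 held the motif. Among the 4 ribosome biogenesis lists 32 of 148 matched promoters held it, 21.6%. Over all promoters of the table the share was 7.24%, and over those of the genes listed as deposited 10.4%. By role the share was 28.6% for the small subunit, 22% for the large subunit, 20.7% for the polymerases and 1 of 20 for the nucleolar core. A match describes these letters only and says nothing of binding. The 3 rule gene promoters that hold the motif are shown with it in capitals, followed by that of Nop16, a rule gene without it. Their positions are chr12:111677855-111678154, plus strand for Trmt61a, chr5:23783662-23783961, minus strand for Pus7, chr5:139460485-139460784, minus strand for 3110082I17Rik and chr13:54590025-54590324, minus strand for Nop16.
Trmt61a: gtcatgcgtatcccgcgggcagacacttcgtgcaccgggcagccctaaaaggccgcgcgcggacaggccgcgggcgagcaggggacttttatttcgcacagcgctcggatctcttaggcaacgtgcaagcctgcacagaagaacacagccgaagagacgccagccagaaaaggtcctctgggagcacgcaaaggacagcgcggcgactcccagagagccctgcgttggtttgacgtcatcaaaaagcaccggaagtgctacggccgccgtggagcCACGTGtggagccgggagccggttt
Pus7: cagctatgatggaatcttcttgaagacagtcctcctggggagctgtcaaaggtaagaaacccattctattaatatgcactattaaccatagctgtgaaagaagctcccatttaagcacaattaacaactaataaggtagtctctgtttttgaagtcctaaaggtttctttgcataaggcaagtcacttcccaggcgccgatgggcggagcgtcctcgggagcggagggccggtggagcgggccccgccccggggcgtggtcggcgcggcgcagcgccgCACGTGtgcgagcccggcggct
3110082I17Rik: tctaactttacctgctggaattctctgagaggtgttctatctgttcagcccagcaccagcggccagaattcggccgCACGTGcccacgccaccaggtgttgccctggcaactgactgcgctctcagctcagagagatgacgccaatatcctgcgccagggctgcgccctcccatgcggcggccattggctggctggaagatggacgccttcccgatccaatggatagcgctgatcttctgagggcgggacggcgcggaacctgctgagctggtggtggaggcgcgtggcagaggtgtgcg
Nop16: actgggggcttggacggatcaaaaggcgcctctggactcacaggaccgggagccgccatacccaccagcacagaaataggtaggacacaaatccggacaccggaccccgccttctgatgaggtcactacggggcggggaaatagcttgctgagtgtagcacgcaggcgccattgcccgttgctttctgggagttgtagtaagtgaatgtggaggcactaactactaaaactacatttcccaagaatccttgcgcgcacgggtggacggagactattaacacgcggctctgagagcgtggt

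Genes that the rule did not name but that serve ribosome production were higher in the ribosome-building cells of both libraries. All values of ribosome-building against low cells come from the contrast the rule made and describe these cells, without support for anything beyond them. Over the 4 lists together the summed level was 40032 CPM in the ribosome-building cells and 16815 CPM in the low cells of the antibody library, a ratio of 2.38 (2.33 to 2.43). For the untreated library it was 47733 CPM and 17070.2 CPM, a ratio of 2.80 (2.69 to 2.91). In the antibody library 133 of 165 measured members were higher and 1 lower, and their median log2 ratio was 1.30. Over all 6476 genes measured there, 20.1% were higher and 25% lower, with a median of -0.06. Untreated, 113 of 145 members were higher and 11 lower, with a median of 1.41, beside 23.4% higher and 35.7% lower of all 5948 genes and a median of -0.18. Both libraries gave the same direction for 105 of the 143 members measured in each as higher and for 1 as lower, against 12.8% higher and 17.5% lower in both among all genes. Per cell thinned to 1000 UMIs, the ribosome-building cells of the antibody library held a median of 38 UMIs of these genes (7 to 84) and the low cells 16 (3 to 57). The untreated medians were 46.5 (22 to 90) and 16 (4 to 42), and none of the 955 low cells reached the median of the ribosome-building cells. In the antibody library 14 of 3707 low cells did.

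**Figure D2:**
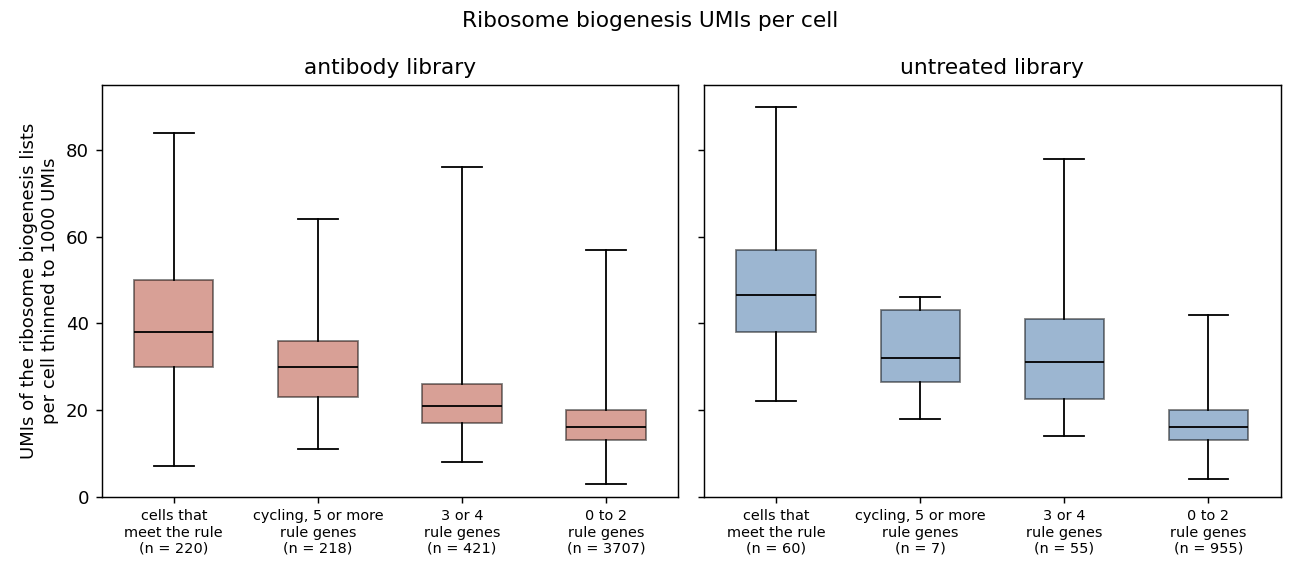
UMIs of the 4 ribosome biogenesis lists per cell after thinning to 1000 UMIs, in 4 sets of cells of the antibody library (left) and the untreated library (right). Boxes span the quartiles with the median as a line, and whiskers run to the lowest and highest cell; the cells that meet the rule have medians of 38 and 46.5 UMIs and the low cells 16 in each library.

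The nucleolar core and the small nucleolar ribonucleoproteins stood furthest apart, with 21 higher and 0 lower of 24 measured in the antibody library and 20 higher and 0 lower of 22 measured in the untreated library, and summed ratios of 3.47 (3.33 to 3.62) and 4.54 (4.23 to 4.87). Ncl (nucleolin, chr1:86344719-86359400), a nucleolar protein that acts on the ribosomal RNA precursor, had 4341 CPM in the ribosome-building cells and 905 CPM in the low cells of the antibody library, a ratio of 4.80 (4.46 to 5.16). The untreated Ncl levels were 6717 CPM in the ribosome-building cells and 1021 CPM in the low cells, a ratio of 6.58 (5.84 to 7.40). Nolc1, a scaffold of the small nucleolar ribonucleoproteins, had 523 CPM in the ribosome-building cells and 75.3 CPM in the low cells of the antibody library, a ratio of 6.95 (5.54 to 8.66). The untreated Nolc1 levels were 633 CPM in the ribosome-building cells and 86.9 CPM in the low cells, a ratio of 7.29 (4.83 to 10.8). The intervals of the 2 sets of cells did not overlap for either gene in either library. Nop56, a core protein of the particles that guide ribosomal RNA methylation, had ratios of 5.78 (4.70 to 7.08) in the antibody library and 7.21 (5.11 to 10.1) in the untreated library. Fbl, the methyltransferase of those particles, had 3.31 (2.84 to 3.85) and 3.44 (2.51 to 4.63). Dkc1, the pseudouridine synthase of the other class of particles, had 6.15 (4.93 to 7.63) and 5.51 (3.42 to 8.63).

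Assembly factors of the large subunit gave 51 higher and 0 lower of 57 measured in the antibody library and 43 higher and 2 lower of 51 measured in the untreated library, with summed ratios of 2.5 (2.40 to 2.60) and 2.67 (2.48 to 2.86). Mybbp1a, a nucleolar protein that binds Myb, had 364 CPM in the ribosome-building cells and 54.5 CPM in the low cells of the antibody library, a ratio of 6.67 (5.09 to 8.69). The untreated Mybbp1a levels were 483 CPM in the ribosome-building cells and 95.3 CPM in the low cells, a ratio of 5.07 (3.22 to 7.78). Rrp15 had ratios of 7.03 (5.00 to 9.76) and 6.37 (3.33 to 11.6). For the small subunit the counts were 47 higher and 0 lower of 56 measured and 37 higher and 4 lower of 48 measured, with summed ratios of 2.11 (2.01 to 2.21) in the antibody library and 2.47 (2.27 to 2.68) in the untreated library. Lyar, a nucleolar zinc finger protein, had ratios of 5.35 (4.12 to 6.90) and 8.09 (5.07 to 12.7) there. Rrp9, a U3 particle protein, had 4.85 (3.25 to 7.08) and 4.68 (2.06 to 9.69). RNA polymerases I and III with their factors had the lowest summed ratios of the 4 lists, with 14 higher and 1 lower of 28 measured and 13 higher and 5 lower of 24 measured and summed ratios of 1.35 (1.26 to 1.44) and 1.48 (1.31 to 1.67). Polr3d, a polymerase III subunit, had ratios of 4.70 (2.86 to 7.47) and 6.82 (3.16 to 13.9). Cd3eap, a polymerase I subunit, had 3.91 (2.52 to 5.89) and 3.49 (1.49 to 7.30). Further genes of the nucleolus among the 15 highest were Gnl3 (nucleostemin) at 6.55 (5.27 to 8.09) and 5.31 (3.70 to 7.49), Ccdc86 at 6.81 (4.59 to 9.92) and 4.44 (2.13 to 8.57) and Gpatch4 at 6.16 (4.46 to 8.39) and 3.81 (1.78 to 7.46). Pa2g4, a protein associated with ribosomes, stood at 5.62 (4.84 to 6.51) and 5.89 (4.38 to 7.84). Smyd5, a methyltransferase, stood at 10.7 (6.28 to 17.9) and 12.4 (5.70 to 26.3).

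**Figure D3:**
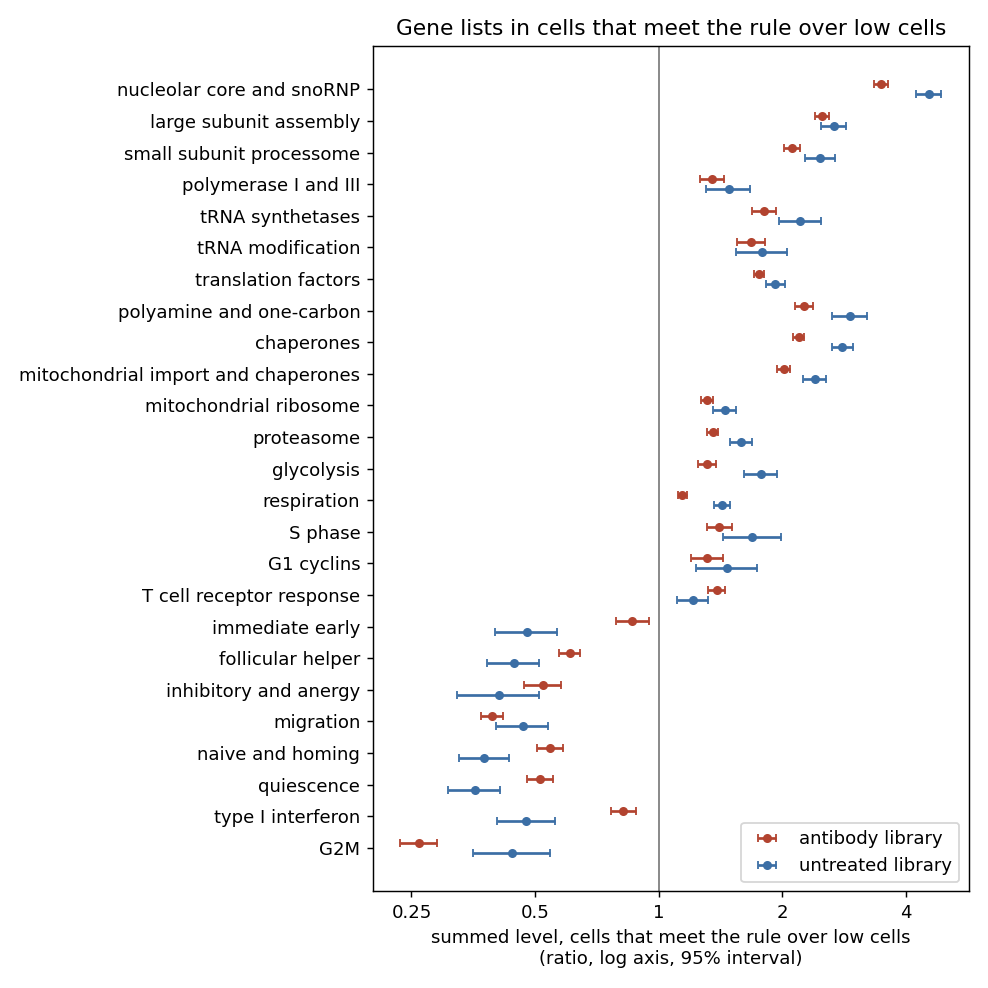
Summed level of gene lists in the cells that meet the rule over the low cells (ratio on a log axis, with exact 95% intervals) in the antibody (red) and the untreated library (blue). Ribosome biogenesis, translation and chaperone lists lie to the right of 1 and the homing, quiescence, migration and G2M lists to the left; the nucleolar core is furthest right at 3.47 and 4.54.

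The other parts of the protein-making machinery were higher as well, most of them by smaller ratios. Transfer RNA modification enzymes had summed ratios of 1.68 (1.55 to 1.81) in the antibody library and 1.78 (1.54 to 2.05) in the untreated library, with 19 higher and 0 lower of 31 measured and 13 higher and 2 lower of 23 measured. Mettl1, the enzyme that places 7-methylguanosine in transfer RNA, was among the 15 highest genes, with 250 CPM in the ribosome-building cells and 16.5 CPM in the low cells of the antibody library, a ratio of 15.2 (10.4 to 22.2). The untreated Mettl1 levels were 233 CPM in the ribosome-building cells and 28.3 CPM in the low cells, a ratio of 8.25 (4 to 16.3). Its partner Wdr4 had 13 UMIs in the ribosome-building cells and 43 in the low cells of the antibody library and 9 and 11 in the untreated library. Transfer RNA synthetases and their scaffold proteins gave 1.81 (1.69 to 1.93) and 2.21 (1.96 to 2.48), with 17 higher and 0 lower of 23 measured and 19 higher and 1 lower of 22 measured. Eef1e1, a scaffold of the synthetase complex, had ratios of 5.01 (3.70 to 6.70) in the antibody library and 3.51 (1.95 to 6.00) in the untreated library. Translation factors gave 1.75 (1.70 to 1.80) and 1.92 (1.82 to 2.03), with 23 higher and 0 lower of 34 measured and 20 higher and 1 lower of 34 measured. Eif5a, which carries hypusine made from spermidine, had 4023 CPM in the ribosome-building cells and 1139 CPM in the low cells of the antibody library, a ratio of 3.53 (3.28 to 3.80). The untreated Eif5a levels were 5233 CPM in the ribosome-building cells and 1006 CPM in the low cells, a ratio of 5.20 (4.56 to 5.91).

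Polyamine, one-carbon and nucleotide synthesis genes had summed ratios of 2.26 (2.14 to 2.38) in the antibody library and 2.92 (2.64 to 3.21) in the untreated library, with 25 higher and 1 lower of 34 measured and 23 higher and 1 lower of 28 measured; the rule gene Srm of the same pathway is not among them. Odc1, the entry enzyme of polyamine synthesis, had 186 CPM in the ribosome-building cells and 55.8 CPM in the low cells of the antibody library, a ratio of 3.34 (2.33 to 4.68). The untreated Odc1 levels were 267 CPM in the ribosome-building cells and 37.7 CPM in the low cells, a ratio of 7.07 (3.67 to 13.1). Gart, an enzyme of purine synthesis, had ratios of 5.43 (3.85 to 7.54) and 7.12 (3.77 to 12.9). Ctps, which makes CTP, had 9.10 (5.48 to 14.8) and 7.23 (1.97 to 22.6), the second from 5 and 11 UMIs. Amino acid and metabolite carriers as a list barely differed, at 1.20 (1.09 to 1.31) and 1.02 (0.845 to 1.21), although Slc7a5, a chain of the large neutral amino acid carrier, had 17 UMIs against 18 in the low cells of the antibody library, a ratio of 15.9 (7.71 to 32.7). In the untreated library Slc7a5 had 5 and 14 UMIs, a ratio of 5.68 (1.60 to 16.7).

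Chaperones and nuclear import receptors were higher, with summed ratios of 2.19 (2.12 to 2.26) in the antibody library and 2.80 (2.64 to 2.96) in the untreated library and 26 higher and 0 lower of 33 measured and 29 higher and 0 lower of 30 measured. Mitochondrial import and chaperone genes gave 2.01 (1.94 to 2.09) and 2.39 (2.24 to 2.56), with 25 higher and 1 lower of 35 measured and 23 higher and 1 lower of 32 measured. Hspd1, the mitochondrial chaperonin HSP60, had 1250 CPM in the ribosome-building cells and 215 CPM in the low cells of the antibody library, a ratio of 5.81 (5.05 to 6.68). The untreated Hspd1 levels were 1833 CPM in the ribosome-building cells and 191 CPM in the low cells, a ratio of 9.62 (7.52 to 12.3). C1qbp, a mitochondrial matrix protein, had 1014 CPM in the ribosome-building cells and 149.7 CPM in the low cells of the antibody library, a ratio of 6.77 (5.77 to 7.92). The untreated C1qbp levels were 817 CPM in the ribosome-building cells and 142 CPM in the low cells, a ratio of 5.73 (4.05 to 8.00). Hspa9, the mitochondrial HSP70, had ratios of 5.83 (4.60 to 7.33) and 6.30 (4.21 to 9.26). Mitochondrial ribosomal proteins were nearer to 1, at 1.31 (1.27 to 1.36) and 1.45 (1.36 to 1.54), with 34 higher and 1 lower of 75 measured and 35 higher and 3 lower of 73 measured. Proteasome genes gave 1.35 (1.31 to 1.40) and 1.59 (1.49 to 1.69), glycolysis 1.31 (1.25 to 1.38) and 1.77 (1.61 to 1.94), and the respiratory chain 1.14 (1.11 to 1.17) and 1.42 (1.36 to 1.49). Of the 46 respiratory genes 6 were higher in the antibody library and 18 in the untreated library, beside 20.1% and 23.4% of all genes. The antibody count was thus below the share over all genes. Pgam1, a glycolytic mutase, had ratios of 2.58 (2.13 to 3.11) and 4.24 (2.87 to 6.13). Cycs, cytochrome c, had 2.43 (1.99 to 2.94) and 3.23 (2.28 to 4.48).

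Genes of T cell activation were mixed, so against the low cells the label early activated was met only in part. Most low cells were themselves primed, with UMIs of at least 3 of 8 genes (Cd44, Izumo1r, Icos, Pdcd1, Tnfrsf4, Cd200, Nrn1 and Wnt10a). These were 3273 of 3707 low cells in the antibody library and 637 of 955 in the untreated library. The ratios therefore do not compare with resting cells. Myc itself, which drives ribosome production, had 127 CPM in the ribosome-building cells and 37.0 CPM in the low cells of the antibody library, a ratio of 3.44 (2.21 to 5.20). The untreated Myc levels were 250 CPM in the ribosome-building cells and 39.8 CPM in the low cells, a ratio of 6.28 (3.21 to 11.7). Mxd4, which competes with Myc for their shared partner Max, had 191 CPM in the ribosome-building cells and 636 CPM in the low cells of the antibody library, a ratio of 0.300 (0.216 to 0.407). The untreated Mxd4 levels were 150 CPM in the ribosome-building cells and 719 CPM in the low cells, a ratio of 0.209 (0.0949 to 0.398). The Myc network as a list summed to 0.774 (0.692 to 0.862) and 0.708 (0.570 to 0.870), with 3 higher and 2 lower of 9 measured and 2 higher and 3 lower of 9 measured. In the list of T cell receptor response genes 15 members were higher and 5 lower of 33 in the antibody library, and 14 and 7 of 32 in the untreated library, with summed ratios of 1.38 (1.32 to 1.45) and 1.21 (1.11 to 1.32). Tnfrsf9 (CD137), a co-stimulatory receptor induced after activation, had 250 CPM in the ribosome-building cells and 45.6 CPM in the low cells of the antibody library, a ratio of 5.48 (3.97 to 7.47). The untreated Tnfrsf9 levels were 400 CPM in the ribosome-building cells and 97.4 CPM in the low cells, a ratio of 4.11 (2.51 to 6.49). Tnfrsf4 (OX40), another such receptor, had 1550 CPM in the ribosome-building cells and 366 CPM in the low cells of the antibody library, a ratio of 4.24 (3.75 to 4.78). The untreated Tnfrsf4 levels were 917 CPM in the ribosome-building cells and 182 CPM in the low cells, a ratio of 5.03 (3.65 to 6.85). Gadd45b, a stress-response gene, had 414 CPM in the ribosome-building cells and 61.8 CPM in the low cells of the antibody library, a ratio of 6.70 (5.19 to 8.57). The untreated Gadd45b levels were 367 CPM in the ribosome-building cells and 83.8 CPM in the low cells, a ratio of 4.38 (2.60 to 7.09). Irf8, a transcription factor of the interferon regulatory family, had 177 CPM in the ribosome-building cells and 37.0 CPM in the low cells of the antibody library, a ratio of 4.80 (3.27 to 6.89). The untreated Irf8 levels were 433 CPM in the ribosome-building cells and 52.4 CPM in the low cells, a ratio of 8.28 (4.95 to 13.6).

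Against these stood the early marker Cd69, whose level was not raised: it had 382 CPM in the ribosome-building cells and 459 CPM in the low cells of the antibody library, a ratio of 0.833 (0.661 to 1.04). The untreated Cd69 levels were 617 CPM in the ribosome-building cells and 1103 CPM in the low cells, a ratio of 0.559 (0.392 to 0.776). Nr4a1, an early receptor response gene, had 105 CPM in the ribosome-building cells and 80.9 CPM in the low cells of the antibody library, a ratio of 1.29 (0.806 to 1.98). The untreated Nr4a1 levels were 217 CPM in the ribosome-building cells and 82.7 CPM in the low cells, a ratio of 2.62 (1.34 to 4.74). Among cells of 4000 to 8000 UMIs the untreated log2 ratio of Nr4a1 was -1.07. That window held 31 ribosome-building and 222 low cells, so very few UMIs of Nr4a1 can set its direction there, and no interval is given. Irf4, an activation-induced transcription factor, had 17 UMIs in the ribosome-building cells of the antibody library and 5 in those of the untreated library, with ratios of 1.75 (0.993 to 2.88) and 2.15 (0.660 to 5.49). Egr2 stood at 0.857 (0.385 to 1.66) and 0.531 (0.0130 to 3.19). Immediate early genes summed to 0.862 (0.785 to 0.945) in the antibody library and 0.477 (0.400 to 0.564) in the untreated library, with 2 higher and 7 lower of 12 measured and 1 higher and 10 lower of 12 measured. Fos had 22.7 CPM in the ribosome-building cells and 126 CPM in the low cells of the antibody library, a ratio of 0.180 (0.0583 to 0.424). The untreated Fos levels were 150 CPM in the ribosome-building cells and 427 CPM in the low cells, a ratio of 0.351 (0.159 to 0.673). Zfp36, which destabilises messenger RNAs, had ratios of 0.347 (0.172 to 0.626) and 0.184 (0.0376 to 0.543). Stat5a, a transducer of interleukin 2 and interleukin 7 signals, was higher at 4.31 (3.32 to 5.54) and 3.14 (1.68 to 5.51), while Il7r, a chain of the interleukin 7 receptor, had 4 UMIs in the ribosome-building cells and 509 in the low cells of the antibody library, a ratio of 0.132 (0.0359 to 0.341), and 1 and 113 in the untreated library, a ratio of 0.141 (0.00354 to 0.801). For Il2ra, the inducible chain of the interleukin 2 receptor, 9.55% of ribosome-building cells and 0.890% of low cells of the antibody library had a UMI before thinning, and 11.7% and 1.36% in the untreated library. After thinning the shares were 1.82% and 0.135% in the antibody library and 3.33% and 0.419% in the untreated library, and 1 of 68 cells of another type (median 6179.5 UMIs) had one in the antibody library, so these thinned shares were too low to set apart from background; before thinning the cells of another type stood at 4.41%.

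**Figure D4:**
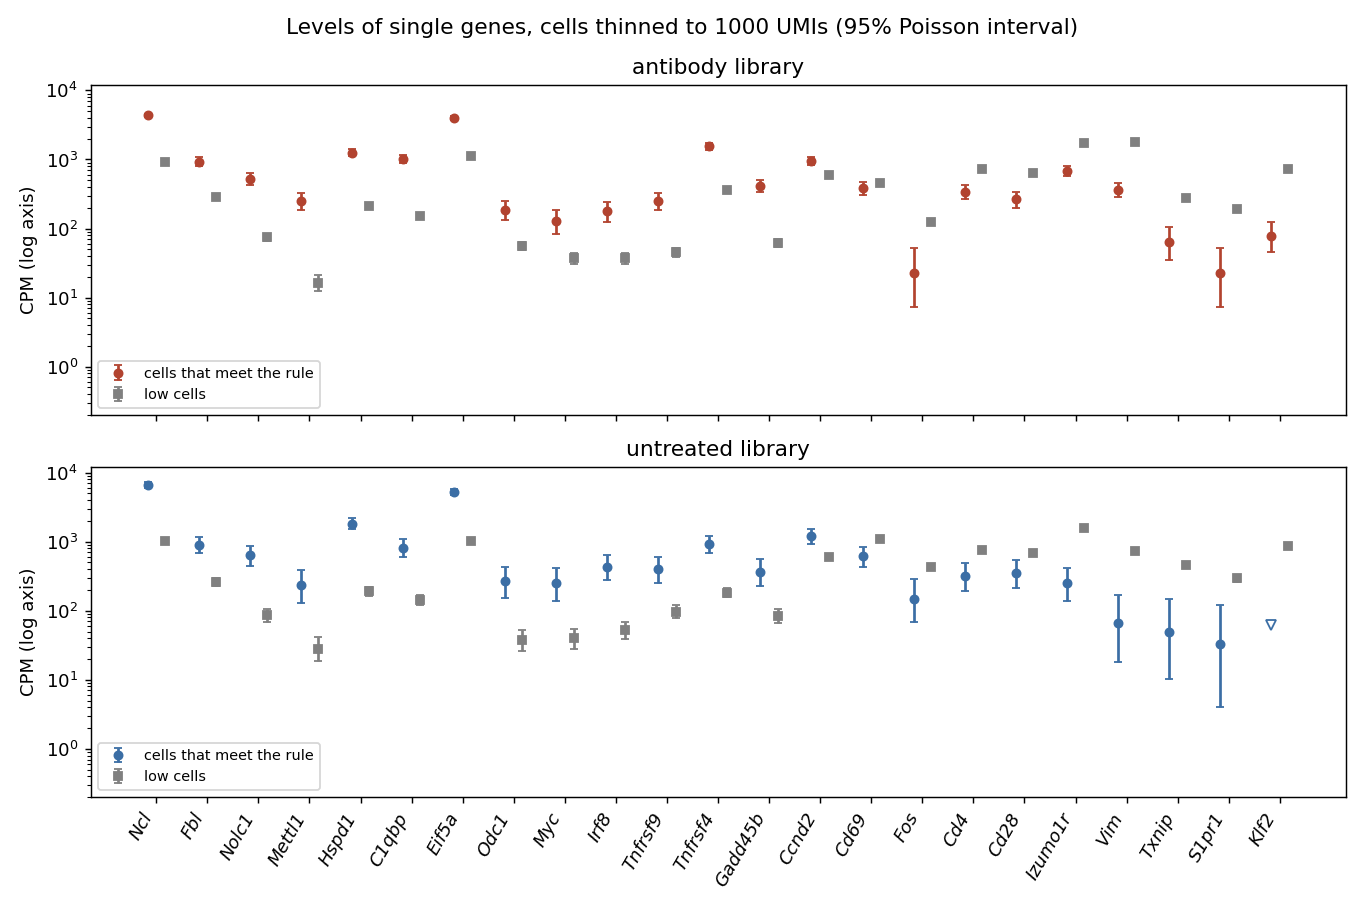
Level of 23 genes (CPM on a log axis, cells thinned to 1000 UMIs) in the cells that meet the rule (coloured circles) and the low cells (grey squares) of the antibody library (top) and the untreated library (bottom), with 95% Poisson intervals; the open triangle is the upper limit where no UMI was seen. Nucleolar and mitochondrial chaperone genes and the receptors Tnfrsf4 and Tnfrsf9 lie above the low cells, Cd28 and Cd4 below them, and homing and quiescence genes such as Klf2 and S1pr1 below them, in both libraries.

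Homing and quiescence genes were lower in the ribosome-building cells. Klf2, a transcription factor that keeps T cells resting and recirculating, had 17 UMIs in the ribosome-building cells and 2721 in the low cells of the antibody library, 77.3 and 734 CPM. In the untreated library it had 0 UMIs and 831, which makes it at least 17.4-fold lower when 3 UMIs are put in place of 0. S1pr1, the receptor that lets T cells leave the lymph node, had 22.7 CPM in the ribosome-building cells and 191 CPM in the low cells of the antibody library, a ratio of 0.119 (0.0385 to 0.279). The untreated S1pr1 levels were 33.3 CPM in the ribosome-building cells and 296 CPM in the low cells, a ratio of 0.112 (0.0136 to 0.410). Ccr7, a lymph node homing receptor, did not follow them, at 373 against 289 CPM in the antibody library, 1.29 (1.02 to 1.62), and 333 against 472 CPM in the untreated library, 0.706 (0.427 to 1.10). The homing list gave 0 higher and 11 lower of 16 measured and 1 higher and 16 lower of 19 measured with summed ratios of 0.545 (0.506 to 0.585) and 0.376 (0.327 to 0.432), and the quiescence list 0 higher and 15 lower of 25 measured and 0 higher and 17 lower of 21 measured with 0.514 (0.478 to 0.552) and 0.356 (0.307 to 0.411). Txnip, which limits glucose uptake, had 63.6 CPM in the ribosome-building cells and 275 CPM in the low cells of the antibody library, a ratio of 0.231 (0.126 to 0.390). The untreated Txnip levels were 50 CPM in the ribosome-building cells and 464 CPM in the low cells, a ratio of 0.108 (0.0221 to 0.317). Cdkn2d, a cell cycle inhibitor, had ratios of 0.233 (0.116 to 0.420) and 0.0808 (0.00204 to 0.455). The 12 lowest genes also held Rasgrp2, an activator of Rap1, at 0.0715 (0.00864 to 0.260) and 0.296 (0.08 to 0.769). Ripor2, an inhibitor of RhoA, stood at 0.151 (0.0691 to 0.289) and 0.158 (0.0324 to 0.467). Of the rest of the 12, Cenpa, Ube2c and Hist1h2ae belong to cell division and replication, which the rule limited, and Tmem71, Dnah8, Armc3 and Tstd3 have no role stated here.

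Follicular helper, inhibitory, migration and type I interferon genes were lower too as lists. The follicular helper list gave 0 higher and 8 lower of 15 measured in the antibody library and 0 higher and 8 lower of 13 measured in the untreated library, with summed ratios of 0.607 (0.572 to 0.645) and 0.443 (0.381 to 0.512). Izumo1r (folate receptor 4), found on anergic and follicular helper T cells, had 686 CPM in the ribosome-building cells and 1727 CPM in the low cells of the antibody library, a ratio of 0.397 (0.336 to 0.467). The untreated Izumo1r levels were 250 CPM in the ribosome-building cells and 1581 CPM in the low cells, a ratio of 0.158 (0.0883 to 0.262). The inhibitory and anergy list gave 0.522 (0.471 to 0.577) and 0.408 (0.322 to 0.510), with 0 higher and 6 lower of 12 measured and 1 higher and 7 lower of 10 measured. Of its members Pdcd1 stood at 0.777 (0.498 to 1.16) and 1.31 (0.465 to 2.99) and Ctla4 at 0.910 (0.583 to 1.36) and 0.249 (0.0298 to 0.917). Migration and cytoskeleton genes gave 0 higher and 14 lower of 17 measured and 2 higher and 10 lower of 16 measured, with 0.393 (0.368 to 0.418) and 0.466 (0.401 to 0.539). Vim, the intermediate filament vimentin, had 364 CPM in the ribosome-building cells and 1773 CPM in the low cells of the antibody library, a ratio of 0.205 (0.162 to 0.256). The untreated Vim levels were 66.7 CPM in the ribosome-building cells and 742 CPM in the low cells, a ratio of 0.0898 (0.0244 to 0.231). Type I interferon response genes gave 1 higher and 16 lower of 25 measured and 1 higher and 18 lower of 24 measured, with summed ratios of 0.819 (0.763 to 0.878) and 0.476 (0.404 to 0.558). Ifi208, an interferon-inducible gene of the p200 family whose members are close copies of each other, had 5 UMIs against 304 in the antibody library, 0.277 (0.0893 to 0.654), and 1 against 130 in the untreated library, 0.122 (0.00308 to 0.694).

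Surface receptors that mark the sorted cells took a smaller share of the UMIs. Cd4 had 336 CPM in the ribosome-building cells and 727 CPM in the low cells of the antibody library, a ratio of 0.463 (0.362 to 0.583). The untreated Cd4 levels were 317 CPM in the ribosome-building cells and 761 CPM in the low cells, a ratio of 0.416 (0.249 to 0.654). The co-stimulation list was mixed, with 4 higher and 3 lower of 12 measured and 6 higher and 5 lower of 12 measured and summed ratios of 1.08 (1.02 to 1.15) and 0.934 (0.815 to 1.07). Cd28, the main co-stimulatory receptor, had ratios of 0.409 (0.310 to 0.531) and 0.510 (0.313 to 0.785), and Cd2, an adhesion receptor, 0.546 (0.465 to 0.637) and 0.437 (0.309 to 0.600). The 2 variable genes of the SMARTA receptor summed to 182 and 323 CPM in the antibody library, a ratio of 0.563 (0.400 to 0.771), and to 183 and 360.2 CPM in the untreated library, 0.509 (0.252 to 0.922). Trbv13-1 had a UMI in 56.8% of ribosome-building cells and 63.1% of low cells of the antibody library before thinning, and in 41.7% and 51.6% in the untreated library. After thinning the shares were 11.8% and 20.3% in the antibody library and 13.3% and 21.7% in the untreated library, beside 5.88% of the 68 cells of another type. Levels are shares of a cell's UMIs, so fewer transcripts per cell and more transcripts of other genes cannot be told apart.

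Genes of mitosis were lower than in the low cells as a list, while more genes of replication were higher than lower. Of the 4 cycling rule genes the cells that meet the rule could carry at most 1, and 64.5% and 80% carried none in the antibody and the untreated library. G2M genes outside the rule gave 0 higher and 21 lower of 21 measured and 2 higher and 4 lower of 7 measured against the low cells, which were free to cycle, with summed ratios of 0.261 (0.234 to 0.289) and 0.440 (0.353 to 0.542). S phase genes stood above the low cells, with 15 higher and 5 lower of 31 measured and 12 higher and 2 lower of 18 measured and summed ratios of 1.40 (1.31 to 1.5) in the antibody library and 1.69 (1.43 to 1.98) in the untreated library. Against only those low cells that also had at most 1 cycling rule gene, the log2 ratio of the G2M list was -0.65 in the antibody library, where all low cells gave -1.94, and -0.89 in the untreated library, where all low cells gave -1.18. The S phase list gave log2 ratios of 1.23 in the antibody library, where all low cells gave 0.49, and 0.92 in the untreated library, where all low cells gave 0.76. Ung, the uracil glycosylase of DNA repair, had 36 UMIs against 111 in the antibody library, 5.46 (3.64 to 8.02), and 8 against 20 in the untreated library, 6.37 (2.43 to 15.1). Pcna, the replication clamp, had 300 CPM in the ribosome-building cells and 200.4 CPM in the low cells of the antibody library, a ratio of 1.5 (1.15 to 1.93). The untreated Pcna levels were 283 CPM in the ribosome-building cells and 153 CPM in the low cells, a ratio of 1.85 (1.05 to 3.07). Ccnd2, a D-type cyclin of G1, had 964 CPM in the ribosome-building cells and 590.2 CPM in the low cells of the antibody library, a ratio of 1.63 (1.41 to 1.88). The untreated Ccnd2 levels were 1200 CPM in the ribosome-building cells and 603 CPM in the low cells, a ratio of 1.99 (1.54 to 2.55). The related Ccnd3 stood at 0.513 (0.373 to 0.690) and 0.592 (0.335 to 0.973).

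A set of cells with at least 5 rule genes was kept out by the cycling limit: 218 cells of the antibody library and 7 of the untreated library carried 2 or more of the 4 cycling rule genes. In the antibody library their median was 15782.5 UMIs, against 6872.5 in the ribosome-building cells. The ribosome biogenesis lists stood at 40032 CPM in the ribosome-building cells and 30197 CPM in the cycling cells, a ratio of 1.33 (1.28 to 1.37), with 46 higher and 3 lower of 131 measured; of all 3565 genes measured 17% were higher and 12.4% lower. Myc had 127 CPM in the ribosome-building cells and 32.1 CPM in the cycling cells, a ratio of 3.96 (1.69 to 10.7). Tnfrsf9 had 250 and 36.7 CPM, 6.81 (3.23 to 16.6), and Cd69 382 and 151 CPM, 2.52 (1.67 to 3.90). The T cell receptor response list gave 17 higher and 0 lower of 27 measured with a summed ratio of 1.83 (1.70 to 1.98), and the S phase list 0 higher and 30 lower of 31 measured with 0.330 (0.305 to 0.356). The limit on cycling rule genes split these 2 sets, so their difference in replication genes is a description of that choice. In the untreated library the 7 cycling cells gave a ribosome ratio of 1.42 (28.6% of 434 genes higher and 16.4% lower) and were too few to describe further.

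Cells of other types were rare among the ribosome-building cells. With 33 markers of B cells, myeloid, stromal and red cells, 3 or more of which had to be seen, 2 of the 220 ribosome-building cells of the antibody library (0.909%, 0.110 to 3.25%) and 51 of its low cells (1.38%, 1.03 to 1.80%) counted as another type. The untreated counts were 0 of 60, which allows a share of up to 5.96% by the exact interval, and 2 of 977 low cells. A single cell of the antibody library held 7967 of the 7977 Igkc UMIs, 1600 of 1600 Jchain UMIs and 244 of 244 Mzb1 UMIs of the ribosome-building cells before thinning. The B cell markers summed to 2586 CPM against 444 CPM in the low cells of the antibody library, and to 138 against 244 CPM without cells of another type. Untreated, they summed to 150 and 414 CPM, with 15 of 18 markers at 0 UMIs in the ribosome-building cells. The myeloid markers summed to 523 and 811 CPM in the antibody library and 400 and 822 CPM in the untreated library, with 12 and 15 of 17 markers at 0 UMIs in the ribosome-building cells. Without cells of another type the ribosome ratio was 2.38 in the antibody library and 2.80 in the untreated library. Foxp3, which defines Tregs, had 3 UMIs in the ribosome-building cells of the antibody library after thinning and 0 in those of the untreated library. Libraries shared at most 10 cell barcodes, and the antibody and the untreated library shared 2. No doublet caller was run; the deepest cell that met the rule had 19877 UMIs in the antibody library and 14930 in the untreated library.

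Between the libraries, the ribosome-building cells of the antibody library had somewhat lower ribosome biogenesis levels and more transcripts of helper, migration and replication genes than those of the untreated library. For these helper, migration and replication lists the low cells differed the same way, by larger ratios for migration and replication. The rule did not compare the libraries, but it picked the cells of each by detection with all UMIs, which moves with depth. These cells had a median of 6872.5 UMIs in the antibody library and 5313 in the untreated library before thinning. Among cells of 4000 to 8000 UMIs the ribosome ratio between the libraries was 0.875 (0.824 to 0.928). The part of depth was not tested, and the contrast compares 2 libraries, not the treatments. The ribosome biogenesis lists stood at 40032 CPM in the antibody library and 47733 CPM in the untreated library, a ratio of 0.839 (0.804 to 0.875). Of 116 measured members 5 were higher and 20 lower, and their median log2 ratio was -0.18. Of all 2483 genes 14.7% were higher and 10.1% lower, with a median of -0.01. With totals scaled by edgeR's TMM factors the shares were 17.8% and 7.69% and the ribosome ratio 0.888. In the low cells the same lists stood at 16815 CPM in the antibody library and 17070.2 CPM in the untreated library, 0.985 (0.968 to 1.00), beside 4.99% of genes higher and 6.31% lower. Ncl had 4341 CPM in the ribosome-building cells of the antibody library and 6717 CPM in those of the untreated library, 0.646 (0.575 to 0.728), and 905 against 1021 CPM in the low cells, 0.886 (0.825 to 0.953). Utp14a, a small subunit processing factor, had 136 and 400 CPM, 0.341 (0.193 to 0.609). Irf8 had 177 and 433 CPM, 0.409 (0.243 to 0.700). Myc had 127 and 250 CPM, 0.509 (0.263 to 1.03).

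Among the genes higher in the antibody library was Icos, a co-stimulatory receptor of helper T cells, with 650 CPM in the ribosome-building cells of the antibody library and 200 CPM in those of the untreated library, a ratio of 3.25 (1.80 to 6.44). In the low cells Icos had 723 and 263 CPM, 2.75 (2.42 to 3.14), so it was higher in both sets of cells. Batf, a transcription factor of helper T cells, had 818 and 300 CPM, 2.73 (1.68 to 4.71), beside 1.51 (1.31 to 1.75) in the low cells. Izumo1r had 686 and 250 CPM, 2.75 (1.61 to 5.03), beside 1.09 (1.03 to 1.16) in the low cells. Slamf6, a receptor of helper and stem-like T cells, had 568 and 133 CPM, 4.26 (2.10 to 10.1), beside 1.33 (1.22 to 1.46). These are surface receptors and regulators of helper T cells. Vim had 80 UMIs in the antibody library and 4 in the untreated library, 5.45 (2.05 to 20.5), beside 2.39 (2.21 to 2.58) in the low cells. S100a6, a calcium-binding protein, had 65 UMIs and 1, 17.7 (3.07 to 711), beside 5.89 (4.74 to 7.41). Dut, which removes dUTP, had 116 and 7 UMIs, 4.52 (2.12 to 11.5), beside 2.05 (1.71 to 2.47). By list, follicular helper genes stood at 1.62 (1.38 to 1.90) with 5 higher and 0 lower of 9 measured, migration genes at 1.46 (1.25 to 1.72) with 8 higher and 2 lower of 13 measured and S phase genes at 1.46 (1.24 to 1.73) with 5 higher and 2 lower of 13 measured; in the low cells the ratios were 1.18 (1.15 to 1.21), 1.74 (1.69 to 1.78) and 1.76 (1.67 to 1.85). Of the other genes among the 10 highest, Itgb1, the beta 1 integrin, stood at 4.23 (1.87 to 11.8), Hpcal1, a calcium sensor, at 5.25 (1.97 to 19.8) and Ptger4, a prostaglandin E2 receptor, at 5.86 (1.53 to 50) from 2 untreated UMIs, beside 1.39 (1.25 to 1.55), 1.16 (1.02 to 1.34) and 1.22 (0.965 to 1.55) in the low cells. Type I interferon genes stood at 1.45 (1.22 to 1.73) with 3 higher and 0 lower of 9 measured and at 0.845 (0.819 to 0.871) in the low cells. Among the 10 lowest genes were Eif4a2, a helicase of translation initiation, at 0.420 (0.245 to 0.735), Arcn1, a subunit of the coatomer, at 0.318 (0.161 to 0.634), and the membrane protein Emp3 at 0.442 (0.272 to 0.728). Whether ratios differ between the ribosome-building and the low cells was not tested, and the untreated side of each ratio rests on 60 cells.

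How common the cells were depends on depth, since the rule reads detection. With every cell thinned to 3000 UMIs, 2.34% (1.88 to 2.88%; 88 of 3760 cells) met the rule in the antibody library and 5.10% (3.47 to 7.20%; 30 of 588 cells) in the untreated library. With all UMIs of each cell the shares were 4.82% (4.22 to 5.48%; 220 of 4566 cells) and 5.46% (4.19 to 6.97%; 60 of 1099 cells), and the intervals overlapped. At 2000 UMIs they were 1.30% (0.985 to 1.69%; 56 of 4302 cells) and 1.25% (0.626 to 2.23%; 11 of 879 cells), and at 4000 UMIs 4.39% (3.67 to 5.20%; 127 of 2892 cells) and 9.87% (6.81 to 13.7%; 31 of 314 cells). The untreated share was thus the higher one at 3000 and 4000 UMIs and not set apart at 2000. Thinning to 3000 UMIs left out 806 cells of the antibody library and 511 of the untreated library, so the untreated value covers the deeper cells of that library. In the libraries outside the rule, the shares at 3000 UMIs were 1.31% (0.823 to 1.98%; 22 of 1679 cells) with both treatments, 0.974% (0.569 to 1.56%; 17 of 1745 cells) with Treg depletion and 1 of 68 cells in the naive library.

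**Figure D5:**
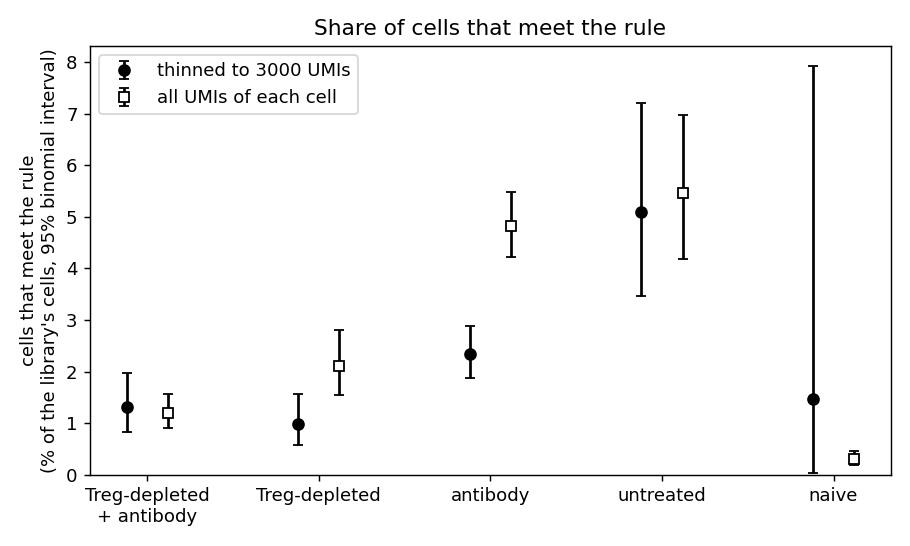
Share of cells that meet the rule in each library (percent of its cells, exact 95% binomial intervals), after thinning to 3000 UMIs (filled circles) and with all UMIs of each cell (open squares). After thinning the antibody library stands at 2.34% and the untreated library at 5.10%; only 68 naive cells reach that depth.

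The same rule met 52 cells of the library with both treatments, 46 of the Treg-depleted library and 24 of the naive library. Of these, 1, 4 and 0 counted as cells of another type. They were chosen by the same rule genes and set against low cells by the same limit. The ratios below therefore describe that choice again and give no separate support. Naive cells were shallow, with medians of 2355 UMIs in the 24 cells and 1673 in the naive low cells. Their ribosome biogenesis level over that of the low cells of the same library was 2.55 (2.44 to 2.66) with both treatments, 2.25 (2.14 to 2.37) with Treg depletion and 2.56 (2.42 to 2.71) in the naive library. Of the measured members 125 of 160, 105 of 150 and 127 of 170 were higher in these 3 libraries; among all genes 27.5%, 27.4% and 34.6% were higher. The lower counts were 5, 6 and 9 members, beside 31.5%, 26.1% and 20.1% of all genes. Myc stood at 4.22 (2.14 to 7.54), 6.25 (2.85 to 12.3) and 7.56 (3.43 to 14.5) and Klf2 at 0.100 (0.0368 to 0.218), 0.0666 (0.0137 to 0.195) and 0.236 (0.129 to 0.396). Cd69 had ratios of 0.438 (0.255 to 0.703), 0.674 (0.376 to 1.12) and 0.840 (0.362 to 1.66), so that in none of the 5 libraries was it raised to 1.5-fold. Tnfrsf9 had 14 UMIs in the 24 naive cells and 104 in the 7520 naive low cells, a ratio of 42.2 (22.3 to 74.0), with 3.87 (3.05 to 4.84) in the library with both treatments and 2.52 (1.96 to 3.19) in the Treg-depleted library.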

How the data were processed

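Single-cell 3′ libraries of sorted SMARTA CD4 T cells were analysed from UMI count tables. The authors deposited 1 table of whole-number counts per library, with genes in rows and cells in columns; per the submitters' processing notes the tools were bcl2fastq 2.20, Cell Ranger 6.0.0, R 4.1.1 and Seurat 4.0.4, with mm10. Which cell and gene filters gave the 11924 listed genes is not given in the sources used here.

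The rule was applied to all UMIs of a cell. Cells were then thinned to 1000 UMIs, counts were summed over each set of cells and divided by their total, and ratios were given exact conditional binomial intervals, CPM exact Poisson intervals and shares exact Clopper-Pearson intervals. A count of 0 was replaced by 3 UMIs for a bound. Levels are shares of UMIs, so they measure transcripts relative to all others in the cell. Each group is 1 library, so no test was made. Median depth was 1683 to 5208.5 UMIs per cell and limits what a thinned cell can show: 1 UMI is 1000 CPM of a single cell. The functions for ratios and intervals were checked on simulated counts summed over cells. These were drawn without spread between cells, so the check says nothing of that spread. The members and gene lists were chosen with earlier results of these data known.

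The genes named are the rule genes, the 15 highest and 12 lowest against low cells by the interval bound nearest to 1, up to 4 of each list with the largest ratios, a fixed list, and the 10 highest and 10 lowest between the libraries; fewer are printed. A cell was to count as another type with UMIs of 3 or more of 39 markers, but 6 of these were seen in over 10% of the cells of at least 1 library and 2423 of 4566 antibody cells met that definition. The 6 were left out after the data were seen, which left 33. No doublet caller was run, and leaving out the deepest 5% of cells is among the alternatives. Of the listed names 11814 were found in GENCODE M21. Scaling factors came from edgeR 4.0.16 under R 4.3.3, intervals from SciPy 1.17.1, and tables and figures from pandas 2.3.3, NumPy 2.4.6 and Matplotlib 3.10.9 in Python 3.11.15. The alternatives were other thinning depths, rule limits, depth windows, primed or non-cycling low cells, level minimums, scaling and left-out cells.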

Additional observations from a re-analysis of the deposited data

Results flagged for a closer look

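Ptger4, a prostaglandin E2 receptor gene, and Anxa2, a calcium-dependent membrane-binding protein, lay on opposite sides of the low cells in the 2 libraries at 1000 UMIs per cell, and neither difference was tested. Ptger4 had 43 UMIs in the ribosome-building cells and 420 in the low cells of the antibody library, a log2 ratio of 0.79, and 2 and 89 UMIs in the untreated library, a log2 ratio of -1.48. The opposite sides of Ptger4 depended on the thinning: its untreated log2 ratio was 0.26 without thinning, 0.054 at 500 UMIs and 0.60 at 2000 UMIs, and its antibody log2 ratio was -0.17 at 500 UMIs. Anxa2 had 18 and 1000 UMIs in the antibody library, a log2 ratio of -1.72, and 6 and 45 UMIs in the untreated library, a log2 ratio of 1.09. The untreated intervals of both genes included a ratio of 1, at 0.358 (0.0427 to 1.33) for Ptger4 and 2.12 (0.740 to 4.99) for Anxa2. With 1 library per group no group was large enough to look for single libraries far from the rest.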

How the results depend on the processing

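No paired analysis was possible because each group is 1 library and the labels carry no replicate numbers. The log2 ratio of the ribosome biogenesis lists, ribosome-building over low cells, was 1.25 in the antibody library and 1.48 in the untreated library and stayed above 1 under every alternative that gave a value. In the antibody library it was 1.22 without thinning, 1.15 and 1.33 with at least 4 and at least 6 rule genes, 1.29 among cells of 4000 to 8000 UMIs, 1.46 with the rule on cells thinned to 3000 UMIs, 1.31 with TMM factors and 1.38 without cells that had 2 markers of another type. In the untreated library it was 1.39 at 500 UMIs, 1.42 and 1.57 with at least 4 and at least 6 rule genes, 1.57 among cells of 4000 to 8000 UMIs, 1.57 against primed low cells, 1.64 with the rule on thinned cells and 1.40 with TMM factors. Leaving out cells with 2 markers of another type left 17 ribosome-building cells there, too few for a value. That setting counted all 39 markers, the 6 widely seen ones among them, in both libraries. Between the libraries it was -0.25, and -0.17 with TMM factors.

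Counts of genes depended on the settings. Against 1299 higher and 1616 lower genes in the antibody library, a minimum of 100 CPM gave 580 and 562, and no CPM minimum 2106 and 2776. Against 1391 higher and 2121 lower genes in the untreated library, 500 UMIs gave 916 higher, cells of 4000 to 8000 UMIs 498 and 885, a minimum of 100 CPM 803 and 747, and no CPM minimum 2269 higher. Between the libraries 366 genes were higher and 251 lower, against 624 and 379 without thinning and 228 and 145 among cells of 4000 to 8000 UMIs. Fewer or more genes and UMIs entered by construction.

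The share of cells that meet the rule was 2.34% in the antibody library and 5.10% in the untreated library. At 2000 UMIs it was 1.30% and 1.25%, at 4000 UMIs 4.39% and 9.87%, and with at least 4 rule genes 5% and 8.33%; without thinning the antibody share was 4.82%. Of the single genes, Ptger4 changed direction against the low cells of the untreated library, to 0.26 without thinning, 0.054 at 500 UMIs and 0.60 at 2000 UMIs, and against those of the antibody library to -0.17 at 500 UMIs. Among cells of 4000 to 8000 UMIs Nr4a1 turned to -1.07 in the untreated library and to 1.66 between the libraries, and Cd69 to 0.34 between the libraries. The untreated side of these values rests on 31 ribosome-building cells, and no intervals are given for them. The B cell marker sum of the antibody library turned to -1.77 among cells of 4000 to 8000 UMIs, -2.12 with the rule on thinned cells, -0.85 and -0.83 without cells with 2 markers and without cells of another type, and -1.67 without the deepest 5%; between the libraries it turned to -0.61 among cells of 4000 to 8000 UMIs and -0.12 without cells of another type. The causes were not tested, apart from the 1 cell that held nearly all Igkc UMIs. With 60 untreated cells thinned to 1000 UMIs, genes of a few UMIs have wide intervals, and differences within them were not detectable at this depth.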

Other observations

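Survival genes were mixed, with 4 higher and 2 lower of 13 measured in the antibody library and 4 higher and 5 lower of 13 measured in the untreated library and summed ratios of 1.22 (1.12 to 1.32) and 1.09 (0.914 to 1.29). Bcl2l1, which encodes the survival protein BCL-XL, had 45 UMIs in the ribosome-building cells and 210 in the low cells of the antibody library, a ratio of 3.61 (2.56 to 5.00). In the untreated library Bcl2l1 had 9 and 33 UMIs, 4.34 (1.83 to 9.27). Cholesterol synthesis gave 4 higher and 0 lower of 16 measured and 4 higher and 2 lower of 11 measured, with summed ratios of 1.14 (1.00 to 1.28) and 1.53 (1.19 to 1.93). Idi1, an isomerase of the mevalonate pathway, had 20 against 86 UMIs in the antibody library, 3.92 (2.28 to 6.43), and 8 against 14 UMIs in the untreated library, 9.10 (3.31 to 23.2). These are counts of the contrast the rule made and are descriptions. Over all genes measured, 20.1% were higher and 25% lower in the antibody library, and 23.4% and 35.7% in the untreated library. Several counts here and in the next paragraph lie near these shares.

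T helper 1 and cytotoxic genes gave 2 higher and 2 lower of 5 measured and 1 higher and 1 lower of 6 measured, with summed ratios of 0.987 (0.853 to 1.14) and 0.824 (0.578 to 1.14). Bhlhe40, a transcription factor of activated T cells, had 43 and 194 UMIs in the antibody library, 3.73 (2.62 to 5.22). The regulatory list gave 1 higher and 3 lower of 6 measured and 1 higher and 2 lower of 5 measured, with 0.867 (0.763 to 0.983) and 0.848 (0.656 to 1.08). Tnfrsf18 (GITR), a co-stimulatory receptor of regulatory and activated T cells, stood at 1.62 (1.29 to 2.03) and 2.01 (1.32 to 2.94), and Nrp1, a receptor of thymic Tregs, had 6 and 275 UMIs in the antibody library and 0 and 52 in the untreated library. Cytokine signalling genes gave 1 higher and 3 lower of 19 measured and 3 higher and 9 lower of 19 measured, with 0.936 (0.871 to 1.01) and 0.814 (0.707 to 0.934). Il6ra, the interleukin 6 receptor chain, stood at 0.228 (0.117 to 0.400) and 0.423 (0.153 to 0.934). CD8 and NK cell markers summed to 282 and 518 CPM in the antibody library and to 233 and 533 CPM in the untreated library. Stromal and red cell markers summed to 68.2 and 187 CPM and to 66.7 and 232 CPM.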
